A study of Rattus norvegicus with 8 samples.

Results

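The mammalian circadian clock was read in thigh skeletal muscle through 10 genes: the activators Bmal1 (older symbol Arntl) and Clock, the repressors Per1, Per2, Per3 and Cry2, the nuclear receptors Nr1d1 and Nr1d2, and the output factors Dbp and Tef. Members were taken as every array probe whose gene symbol, current or older, is on this list. 9 of the 10 genes have such a probe, 1 probe each, out of 13337 genes named on the array. Nr1d2 has no named probe and was not analysed here. The rats were of the outbred Wistar Han stock. Compound 197, known only by that code, was mixed into the feed of 4 rats at 150 ppm for 28 days, and 4 control rats ate standard chow for the same time. Each rat gave 1 Illumina beadchip, an array on which short probes on beads read each gene from biotin-labelled RNA of the whole tissue. The sources used here do not give sex, age, cage or the hour at which muscle was taken, and p-values measure only the spread between these 8 samples.

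The clock is a feedback loop that runs in nearly every cell, muscle fibres included. The proteins BMAL1 and CLOCK bind together to E-box elements and switch on the Per and Cry genes, whose products return to block them. The same pair switches on Nr1d1 and Nr1d2, encoding REV-ERB receptors that bind elements built on AGGTCA and repress Bmal1, and on Dbp and Tef, whose proteins bind D-box elements in output genes. In muscle the loop is known for setting daily rhythms of fuel use, and the level of most of these transcripts depends on the hour of sampling.

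Promoter windows from RefSeq (build GRCr8, 250 bases before to 50 bases after a gene start) matched all 10 genes, with 12 windows in all. They were searched on both strands for the E-box CACGTG, the D-boxes TTATGTAA and TTATGCAA, the receptor core AGGTCA and the cyclic AMP element TGACGTCA, none of which overlapped another in these windows. An E-box stood in 2 of the 12 windows, a D-box in 1, an AGGTCA core in 2 and the cyclic AMP element in 0. Of all 33469 windows of this length, 6.42% held the E-box, 0.893% TTATGTAA, 0.863% TTATGCAA, 16.2% the core and 1.83% the cyclic AMP element. The windows of Nr1d1 (the downstream of its 2 starts), Per2 and Tef are shown because they hold an E-box or D-box, and that of Bmal1 was added after its values were seen because its AGGTCA core is the letters that REV-ERB receptors read. The other AGGTCA core stood in the window of Nr1d2, which is not shown. Capitals mark the match. The windows lie at chr10:84229405-84229704 on the minus strand for Nr1d1, chr9:99496944-99497243 on the minus strand for Per2, chr7:115206577-115206876 on the plus strand for Tef and chr1:176766078-176766377 on the plus strand for Bmal1. The Tef gene begins upstream of its window, at chr7:115197180, and the Per1 gene at chr10:54299002, upstream of its window at chr10:54304126-54304425. The windows of Tef and Per1 thus surround a start inside the gene, and the region at its outermost start was not searched. A match describes letters and is no evidence that a factor was bound in this muscle.
Nr1d1: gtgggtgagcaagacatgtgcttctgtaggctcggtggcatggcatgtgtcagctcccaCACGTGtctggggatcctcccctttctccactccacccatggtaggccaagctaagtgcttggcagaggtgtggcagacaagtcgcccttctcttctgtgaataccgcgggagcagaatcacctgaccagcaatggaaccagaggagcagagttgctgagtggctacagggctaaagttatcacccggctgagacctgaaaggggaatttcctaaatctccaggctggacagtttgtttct
Per2: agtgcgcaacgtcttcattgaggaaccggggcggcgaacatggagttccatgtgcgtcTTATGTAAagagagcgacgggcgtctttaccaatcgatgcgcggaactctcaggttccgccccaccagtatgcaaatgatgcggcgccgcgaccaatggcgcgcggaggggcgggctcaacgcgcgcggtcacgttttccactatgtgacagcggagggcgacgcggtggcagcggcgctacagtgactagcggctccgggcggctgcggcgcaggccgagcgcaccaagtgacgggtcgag
Tef: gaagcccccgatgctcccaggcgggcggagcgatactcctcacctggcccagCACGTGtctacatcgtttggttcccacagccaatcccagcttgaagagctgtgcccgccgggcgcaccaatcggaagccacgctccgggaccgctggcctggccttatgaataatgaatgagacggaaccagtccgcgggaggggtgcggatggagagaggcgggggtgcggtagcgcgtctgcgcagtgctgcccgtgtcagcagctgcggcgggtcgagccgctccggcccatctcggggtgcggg
Bmal1: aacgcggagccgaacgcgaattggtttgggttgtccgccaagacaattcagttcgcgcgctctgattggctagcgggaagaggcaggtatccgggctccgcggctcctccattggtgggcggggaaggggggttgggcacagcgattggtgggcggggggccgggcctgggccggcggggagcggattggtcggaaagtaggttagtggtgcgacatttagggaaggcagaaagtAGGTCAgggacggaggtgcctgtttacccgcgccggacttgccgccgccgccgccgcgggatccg

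The tissue and the arrays were checked before the clock genes were compared. All 6 muscle markers with a probe (Ckm, Acta1, Mb, Tnnt3, Myh4 and Myl11) were above background on every array, and their summed linear level ran from 188351 to 200218 on the control arrays and from 198712 to 218653 on the compound 197 arrays. Among them Myh4, a fast myosin heavy chain, rose by 3.62 ± 0.26 (limma adjusted p = 5.75e-06). The sum does not show the spread of Mb, which varied more between rats of a group than 98.6% of tested probes did. Its log2 level ran from 11.17 to 14.13 in controls and from 13.33 to 14.38 with compound 197. The leukocyte markers Ptprc, Cd3e and Cd79b were above background on at most 1 of 8 arrays. Of adipocyte markers, 3 of 4 with a probe were detected and Lep was not. Their summed level spanned 3004 to 4983 in controls and 3352 to 13205 with compound 197. Fabp4, a fatty acid binding protein of adipocytes and capillaries, was higher on all 4 compound 197 arrays (log2 change 0.88 ± 0.21 SE, limma adjusted p = 0.00987), as was so for 16.2% of tested probes. Endothelial, fibroblast, red cell and nerve lists had summed levels that overlapped between groups. Of 2 probes of the endothelial receptor gene Tie1, 1 was lower and passed (-0.60 ± 0.16, limma adjusted p = 0.0173). The other had a change of -0.54 ± 0.26 and did not pass (limma adjusted p = 0.121). The part of other cells in the clock results was not tested, and in whole tissue fewer cells of a type and less RNA per cell cannot be told apart. Between 8310 and 9507 of 22523 probes were above background on control arrays, against 9743 to 10498 on compound 197 arrays, and the lowest raw signal was 59.3 to 61.6 against 51.1 to 55.5.

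Of the 9 clock probes, 6 passed the filter of a detection p under 0.05 on at least 4 of the 8 arrays, and these 6 (Bmal1, Nr1d1, Per1, Per2, Dbp and Tef) did so on all 8. Levels are log2 intensities after background correction and quantile normalization, and changes are compound 197 minus control. In the rats fed compound 197, Bmal1 and Nr1d1 fell, 0 clock probes rose, and 4 did not pass (limma, Benjamini-Hochberg adjusted p under 0.05 over 9873 tested probes). The whole array moved widely, with 40.5% of tested probes called, 16.3% higher and 24.1% lower, so 2 falls among 6 probes is close to the background share. The median change of the 6 was -0.54, beside -0.18 over all tested probes. Median scaling called 1 clock probe higher and none lower, where 23.2% of all probes were called higher and 1.91% lower. Cyclic loess called 1 higher and 2 lower, where the shares of all probes were 19.4% and 8.02%. Relative to the median change of all probes, a comparison chosen after the data were seen, 1 was higher and 1 lower, where the shares were 19.7% and 8.37%. Groups that did not overlap were found for 2 of the 6 clock probes and for 40.0% of all tested probes.

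**Figure D1:**
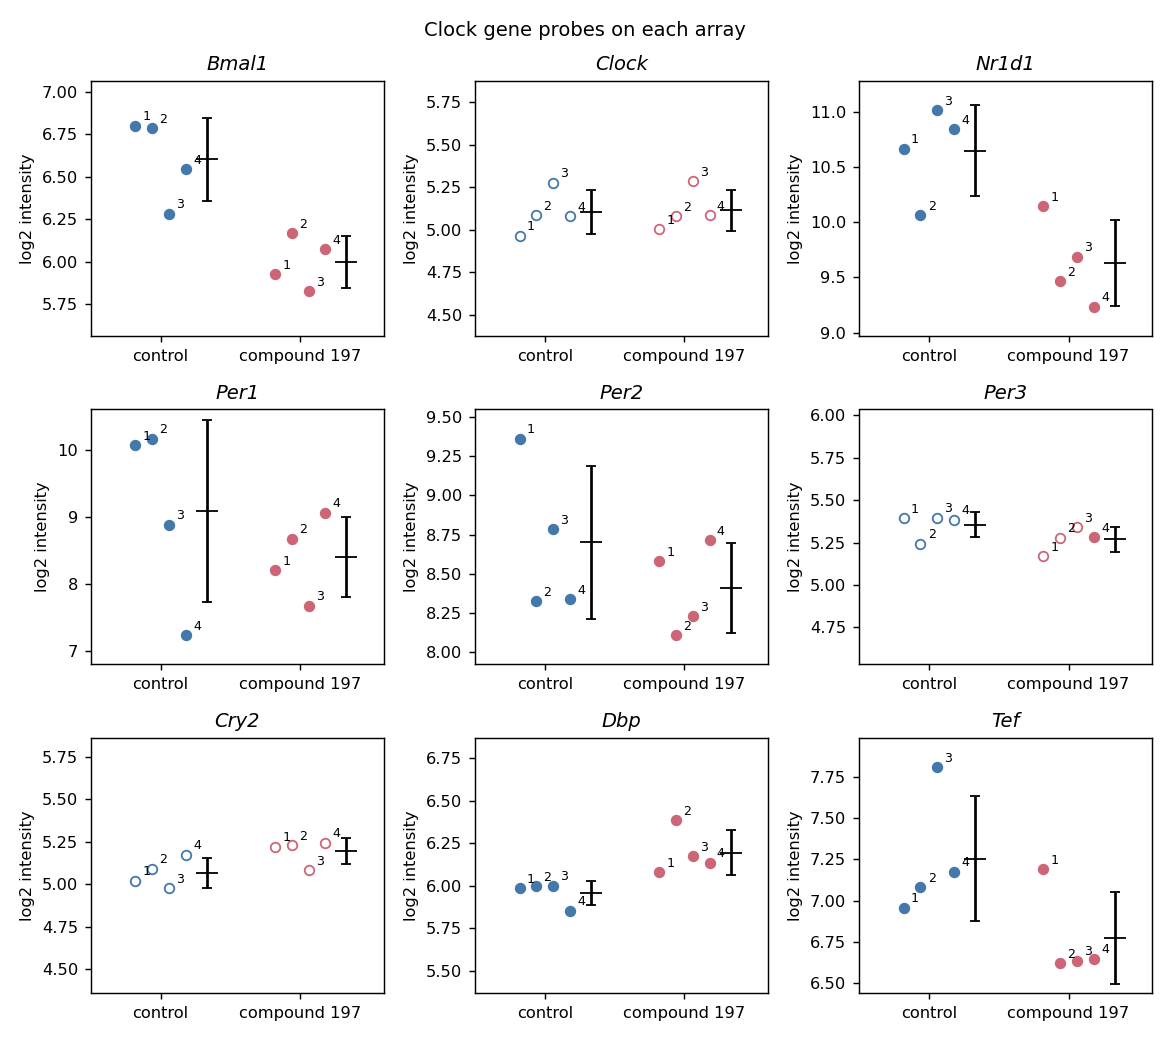
Level of each clock probe (log2 intensity, y axis, a separate range for each gene) on the 4 control arrays (blue) and the 4 compound 197 arrays (red), numbered by replicate. Filled points are above background at a detection p under 0.05, open points are not, and bars give the mean ± SD. Bmal1 and Dbp show groups that do not overlap, Per1 shows controls from 7.24 to 10.17, and Clock and Cry2 are open on all arrays.

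Bmal1 encodes the activator without which the loop stops. Its level was 6.80, 6.78, 6.28 and 6.54 in control replicates 1 to 4 and 5.93, 6.17, 5.82 and 6.07 in compound 197 replicates 1 to 4. All 4 treated rats lay below all 4 controls, as was so for 23.8% of tested probes. The mean went from 6.60 ± 0.24 to 5.998 ± 0.15 (SD, n = 4 each), a change of -0.60 ± 0.14 (SE), which is 1.52-fold lower (limma adjusted p = 0.00961). A lower change was measured on 10.1% of tested probes. The probe was dim, with raw intensities of 135 to 186 in controls and 128 to 147 with compound 197, so on the raw scale the groups overlapped. Without background correction the change was -0.34 (adjusted p = 0.0143), with median scaling -0.045 (adjusted p = 0.920), and relative to the median change of all probes -0.42 (adjusted p = 0.0543).

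Clock, the partner of Bmal1, was above background on 0 of 8 arrays. Its corrected levels, 4.97 to 5.28 in controls and 5.003 to 5.29 with compound 197, lie in the range of probes without signal. No change of Clock was detectable with this probe.

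Nr1d1 encodes REV-ERB alpha, the receptor that represses Bmal1. The level read 10.67, 10.07, 11.02 and 10.85 in control replicates 1 to 4 and 10.15, 9.46, 9.69 and 9.24 in compound 197 replicates 1 to 4. The groups overlapped by a single pair, since compound 197 replicate 1 lay just above control replicate 2, and the other 3 treated rats lay below every control. The mean fell from 10.65 ± 0.41 to 9.63 ± 0.39 (SD, n = 4 each). The change was -1.02 ± 0.25 (SE), or 2.02-fold lower (limma adjusted p = 0.0108), and 2.64% of tested probes had a lower change. This was a clear signal, with a detection p of 0 on every array and raw intensities of 1172 to 1841 in controls against 727 to 1369 with compound 197. With median scaling Nr1d1 still lay below 0 but did not pass (-0.43 ± 0.24, adjusted p = 0.227), and relative to the median change it did pass (-0.83, adjusted p = 0.0322).

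**Figure D2:**
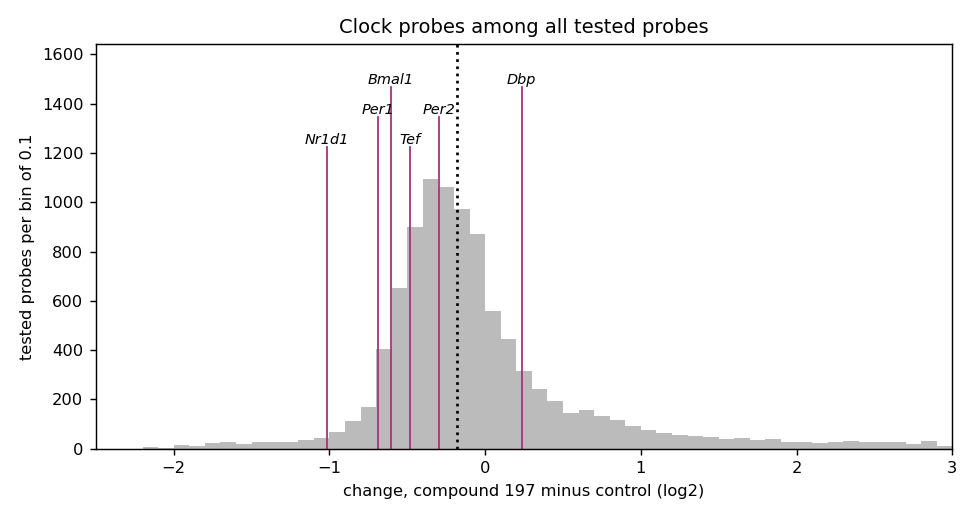
Histogram of the change (compound 197 minus control, log2, x axis) of tested probes with quantile normalization, counted in bins of 0.1 (y axis) and drawn from -2.5 to 3, with a line at each tested clock gene and a dotted line at the median of all, -0.18. Nr1d1 at -1.02 lies in the lower tail, Per1, Bmal1, Tef and Per2 lie left of the dotted line, and Dbp lies right of it at 0.24.

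The Per and Cry genes encode the proteins that close the loop, and Per1 is in addition switched on quickly by glucocorticoids and by stress signals. Per1 varied more between rats of a group than 98.7% of tested probes did. It read 10.07, 10.17, 8.89 and 7.24 in control replicates 1 to 4, and 8.20, 8.68, 7.68 and 9.07 in compound 197 replicates 1 to 4. Thus 1 control lay below every treated rat, while 2 controls lay above every treated rat. The means were 9.09 ± 1.37 and 8.41 ± 0.60 (SD, n = 4 each), a change of -0.69 ± 0.61 (SE, adjusted p = 0.398). Leaving out control replicate 4, the change was -1.30 and passed (adjusted p = 0.0369), and leaving out control replicate 2 it was -0.33 (adjusted p = 0.701), so the value rests on single control rats.

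Per2 differed less. Controls 1 to 4 gave 9.36, 8.33, 8.79 and 8.34, and compound 197 replicates 1 to 4 gave 8.58, 8.11, 8.23 and 8.71. The groups overlapped widely, and the change of -0.29 ± 0.24 did not pass (adjusted p = 0.362). Its sign turned with median scaling, where it was 0.27.

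Per3 was above background on 1 of 8 arrays and Cry2 on 0 of 8. The lowest detection p was 0.0497 for Per3, just inside the limit, on a compound 197 array, and 0.0655 for Cry2. Neither was tested in the main comparison. Corrected levels of Per3 spanned 5.24 to 5.40 in controls and 5.17 to 5.34 with compound 197. Those of Cry2 spanned 4.98 to 5.18 and 5.08 to 5.25. In the fit with no filter on dim probes, adjusted p was 0.389 for Per3, 0.213 for Cry2 and 0.957 for Clock.

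Dbp and Tef encode related leucine zipper factors that carry clock time to metabolic genes. Dbp read 5.99, 5.997, 6.0004 and 5.85 in control replicates 1 to 4 and 6.08, 6.39, 6.18 and 6.14 in compound 197 replicates 1 to 4. All 4 treated rats were above all 4 controls, as was so for 16.2% of tested probes. With quantile normalization the change was 0.24 ± 0.10 (SE), 1.18-fold, from 5.96 ± 0.07 to 6.19 ± 0.13 (SD, n = 4 each), and it did not pass (adjusted p = 0.0933). It passed with cyclic loess (0.39, adjusted p = 0.0161), with median scaling (0.77, adjusted p = 0.00361) and relative to the median change (0.42, adjusted p = 0.0136). Dbp was dim, with raw intensities of 125 to 137 in controls and 143 to 151 with compound 197, and these too did not overlap. The lowest raw signal of any probe was lower on the compound 197 arrays, and its part in the change of Dbp was not tested.

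Tef moved in the opposite direction to Dbp on the quantile scale. Its levels were 6.96, 7.08, 7.81 and 7.18 in control replicates 1 to 4 and 7.19, 6.62, 6.63 and 6.65 in compound 197 replicates 1 to 4. Of the treated rats, 3 lay below every control and replicate 1 lay among the controls. The change was -0.48 ± 0.21 (adjusted p = 0.0931), and with median scaling it was 0.21 (adjusted p = 0.547).

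**Figure D3:**
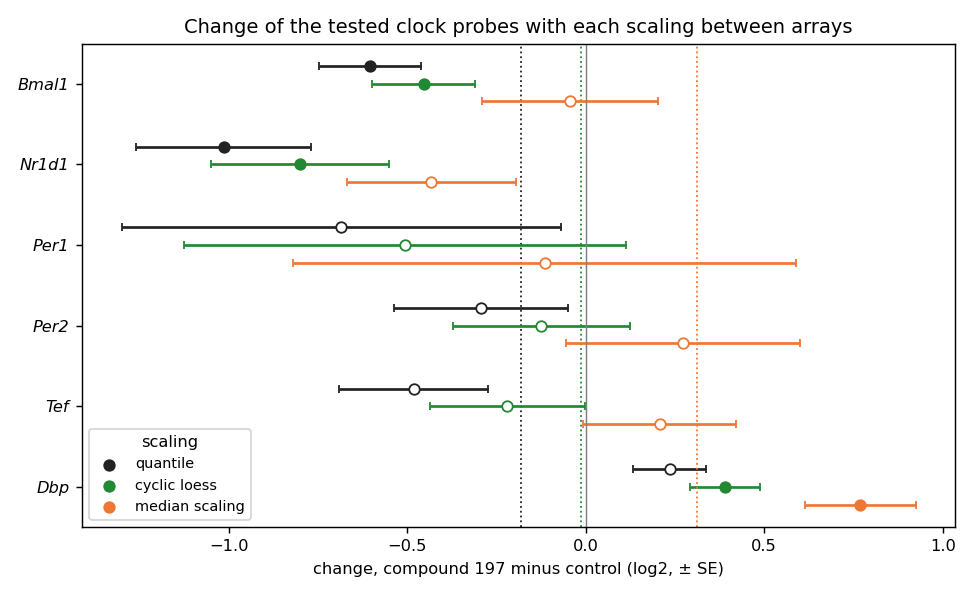
Change of the 6 tested clock probes (compound 197 minus control, log2, ± SE, x axis) with quantile normalization (black), cyclic loess (green) and median scaling (orange). Filled points pass at adjusted p under 0.05, and dotted lines give the median change of all tested probes in each scaling, -0.18, -0.01 and 0.31. Nr1d1 lies left of the dotted line of its colour and Dbp right of it in all 3.

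The scaling between arrays moved the clock probes and the whole array together. The median change of all tested probes was -0.18 with quantile normalization, -0.01 with cyclic loess and 0.31 with median scaling. Under each of the 3, Bmal1, Nr1d1, Per1, Per2 and Tef lay below that median and Dbp above it. Per2 and Tef lay above 0 with median scaling.

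Among rats of a group, some clock genes shared an order, which was picked out after the values were seen and was not tested. In the compound 197 group, Bmal1, Cry1 (a repressor of the Per and Cry family) and Nfil3 (a repressor at D-boxes) had 1 order with quantile normalization and cyclic loess, with replicate 2 at the top, followed by 4, 1 and 3, while Bmal1 had replicate 4 at the top with median scaling and raw intensities. Nr1d1 and Bhlhe40, a repressor at E-boxes, instead had the highest level in replicate 1, followed by 3. Per1, Per2, Dbp, Tef, Usp2 and the remaining tested clock genes had other orders in the compound 197 group with quantile normalization and cyclic loess. With median scaling, Per1, Usp2 and Prkaa2 shared the order of Bmal1 in that group. Btrc shared the order of Bhlhe40 there with median scaling and raw intensities. Of all tested probes with quantile normalization, replicate 2 was highest in that group for 32.5% and replicate 1 for 21.8%. In the controls, with quantile normalization, replicate 3 had the lowest level of Bmal1, Cry1 (8.68), Nfil3 (8.82) and Csnk1d (9.24). It had the highest level of Nr1d1, Bhlhe40 (10.98), Tef, Dbp (6.0004) and Timeless (6.33). The place of replicate 3 at the bottom of Bmal1, Cry1 and Nfil3 was seen in both groups with quantile normalization, cyclic loess, median scaling and raw intensities. For Csnk1d it was seen in both groups on each of these scales but raw intensities. Of all tested probes, control replicate 3 had the lowest control level for 31.1% with quantile normalization and 21.9% with cyclic loess, but for 59.2% with median scaling and 63.8% on raw intensities, so its low place in the last pair of scales is that of most probes. Compound 197 replicate 3 was lowest in its group for 25.0%, 26.9%, 40.1% and 22.0% of all tested probes on the same 4 scales. The place of control replicate 3 at the top of Nr1d1 and Bhlhe40 was seen with quantile normalization and cyclic loess. On those scales it was the highest control for 18.1% and 22.8% of all tested probes. With median scaling and raw intensities control replicate 1 was at the top of both genes. The labels do not say that a replicate number links a control to a treated rat.

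Genes most like Bmal1 and Dbp in their pattern over the 8 arrays were found by the root mean square difference of log2 levels, each centred on its own mean. Nearest to Bmal1 were Zfp637 (difference 0.052), Usp19 (0.085) and Slc35c2 (0.089), which had changes of -0.58, -0.59 and -0.69. Nearest to Dbp were Lin7c (0.068), Cmtm1 (0.070) and Dcbld2 (0.072), with changes of 0.15, 0.16 and 0.19. Among the 6 tested member genes, the nearest to Bmal1 was Per2 (0.404), which ranked 4401 among 7301 named tested probes. The nearest member to Dbp was Bmal1 (0.452), which ranked 5398. Places of the other clock genes in these rankings were not looked up.

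Other genes of the clock were read from a list of 26, of which 15 have a probe and 12 were tested. Of these 12, 1 rose, 1 fell and 10 did not pass, and their median change was -0.11, where 16.3% of all tested probes were called higher and 24.1% lower. Gsk3b, a kinase that acts on several clock proteins, read 8.73, 8.42, 8.58 and 9.22 in control replicates 1 to 4 and 9.24, 9.51, 9.38 and 9.12 in compound 197 replicates 1 to 4. It rose by 0.58 ± 0.18 (adjusted p = 0.0296), with control replicate 4 among the treated rats. Usp2, a deubiquitinase that removes ubiquitin from clock proteins and is itself rhythmic, fell from 12.58, 12.43, 12.39 and 12.29 in the controls to 11.82, 12.21, 11.92 and 12.10. All treated rats lay below all controls, as was so for 23.8% of tested probes. The change of Usp2 was -0.41 ± 0.12 (adjusted p = 0.0237), while it was -0.16 with cyclic loess (adjusted p = 0.383), -0.23 relative to the median change (adjusted p = 0.193) and 0.22 with median scaling (adjusted p = 0.593). Cry1, Bhlhe40 and Nfil3 were above background on all arrays and did not pass, with changes of -0.22 ± 0.22, -0.40 ± 0.21 and -0.07 ± 0.41; they are named after their values were seen, as are the undetected genes that follow. Npas2, a stand-in for Clock, was above background on 0 of 8 arrays, as were Bmal2 and Rorb. The calls here lay near the threshold, and leaving out 1 array at a time gave 0 to 3 calls. The change then ran from 0.47 to 0.74 for Gsk3b and from -0.48 to -0.34 for Usp2. Gsk3b lost its call on removal of control replicate 1 (adjusted p = 0.0580), 2 (0.0644) or 3 (0.0684), or of compound 197 replicate 1 (0.0577), 2 (0.0815) or 3 (0.0731). Usp2 lost its call on removal of control replicate 1 (0.0591), or of compound 197 replicate 1 (0.0723) or 3 (0.0697). Median scaling gave 3 rises and 0 falls in this list, where it called 23.2% of all probes higher and 1.91% lower, and cyclic loess gave 1 rise and 0 falls, where it called 19.4% and 8.02%.

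**Figure D4:**
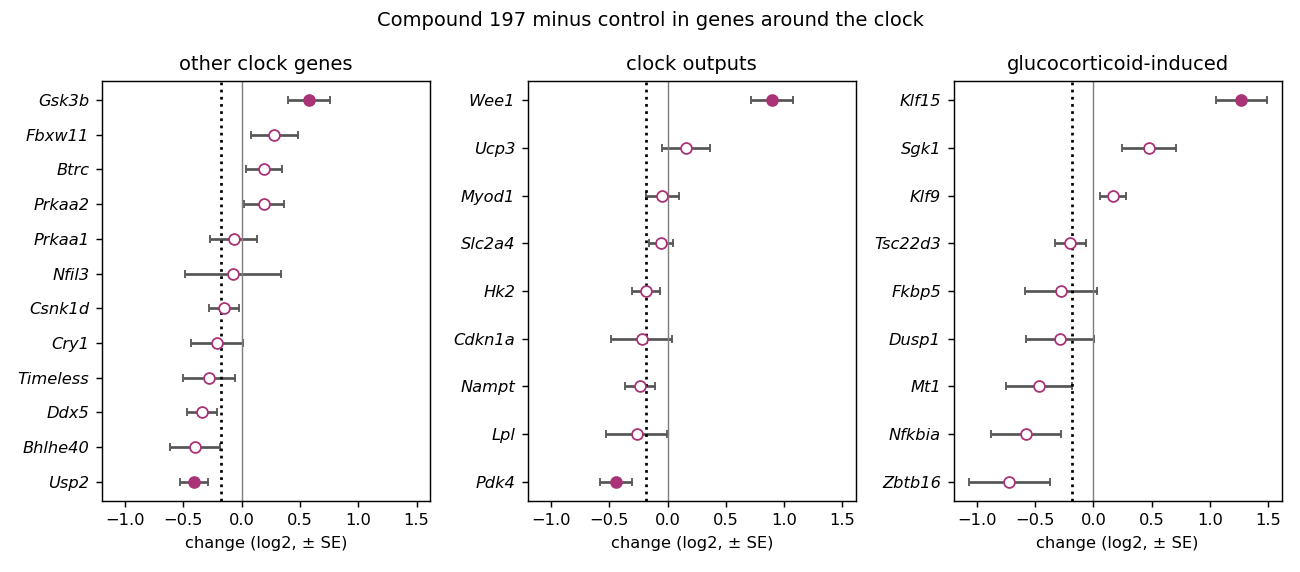
Change (compound 197 minus control, log2, ± SE, x axis) of tested genes in 3 lists with quantile normalization, where filled points pass at adjusted p under 0.05 and the dotted line is the median of all tested probes. Gsk3b, Wee1 and Klf15 are filled to the right of 0, and Usp2 and Pdk4 are filled to the left.

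Outputs of the clock in muscle were read from 10 genes, of which 9 were tested, with 1 rise, 1 fall, 7 that did not pass and a median change of -0.18. That is 2 calls among 9 probes, where 40.5% of all tested probes were called. Wee1, a cell cycle kinase whose gene BMAL1 and CLOCK switch on in mouse liver, read 7.04, 6.29, 6.44 and 6.50 in the controls and 7.35, 7.61, 7.23 and 7.65 with compound 197. All treated rats were above all controls, as was so for 16.2% of tested probes, and Wee1 rose by 0.90 ± 0.18, or 1.86-fold (adjusted p = 0.00415). It passed on leaving out each array in turn, with changes of 0.79 to 1.04, and with every scaling, at 1.56 with median scaling. Pdk4, which holds back pyruvate dehydrogenase, had a change of -0.44 ± 0.14 (adjusted p = 0.0298). It did not pass with cyclic loess (-0.23, adjusted p = 0.224), relative to the median change (-0.26, adjusted p = 0.192) or with median scaling, where it was 0.16 (adjusted p = 0.575). Its call was lost on removal of control replicate 2, 3 or 4, or of compound 197 replicate 1, 2 or 4, with adjusted p from 0.0547 to 0.0835. Myod1, the muscle determination factor, and the glucose transporter gene Slc2a4 had changes of -0.04 ± 0.14 and -0.05 ± 0.10 and are named after their values were seen.

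Glucocorticoid-induced genes, a group to which Per1 belongs, were read from 11 genes, of which 9 were tested, with 1 rise, 0 falls and a median change of -0.28, where 16.3% of all tested probes were called higher and 24.1% lower. Klf15, a factor of amino acid breakdown in muscle, read 7.67, 7.47, 7.48 and 7.31 in the controls and 9.01, 9.28, 8.32 and 8.40 with compound 197. Klf15 was thus higher in all treated rats, as was so for 16.2% of tested probes. Klf15 rose by 1.27 ± 0.22, or 2.41-fold (adjusted p = 0.00190), and passed on leaving out each array in turn, with changes of 1.10 to 1.42. Zbtb16, the gene with the next largest size of change, had -0.72 ± 0.35 (adjusted p = 0.128). In control replicate 4, the array with the lowest Per1, 6 of the 9 genes also had their lowest control level with quantile normalization, namely Klf9, Klf15, Sgk1 (9.33), Nfkbia (9.83), Dusp1 (11.52) and Mt1 (8.58). Of all tested probes, 25.1% had their lowest control level on that array. The count, made after the values were seen, was 7 with cyclic loess, 5 with median scaling and 4 on raw intensities, where the shares of all probes were 19.9%, 25.5% and 9.65%. That array also had the fewest probes above background of the 8, 8310, and the part of this in the levels was not tested. With quantile normalization Zbtb16 had its highest level there, 9.21, and Tsc22d3 its second highest control level, 12.64. Fkbp5 was lowest in control replicate 3, at 10.36, beside 10.39 in control replicate 4.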

How the data were processed

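The authors deposited 2 intensity tables, non-normalized and normalized, per the file headers. Both hold a deposited detection p-value beside each intensity. Their scanner software and normalization method are unstated in the sources used here. The normalized intensity columns deposited share 1 set of sorted values, with a median of 104 on a linear scale and no centring, and equal the series matrix in every cell. Here the non-normalized intensities were corrected with limma's neqc steps (background from detection p, offset 16), quantile normalized and put on the log2 scale. Probes with detection p under 0.05 on at least 4 of 8 arrays were tested, 9873 of 22523, with lmFit and eBayes and Benjamini-Hochberg adjustment over all of them (limma 3.58.1, R 4.3.3). Testing was by probe because the members are probes. Of all probes, 13793 have 1 symbol, 0 several and 8730 are not listed; 13752 matched GRCr8 RefSeq gene numbers. No tested probe named here was undetected in a whole group, so no lower bounds were needed. The number of arrays limits the precision.

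Members and lists were chosen with earlier results of these data known. Named were all member probes, and from each list the genes that passed or the 2 with the largest size of change; the 3 nearest genes by likeness; genes outside this are marked as named after their values were seen. Promoters shown are those holding an E-box or D-box, and that of Bmal1, which was added after its values were seen. The fit was tested on simulated data with the means and spreads of these arrays. It recovered 38.2% of log2 changes of 0.585, 68.2% of those of 1 and 95.5% of those of 2. Of the calls, 6.94% were false. Few probes were changed in the simulation, unlike on these arrays. A probe that did not pass may thus still have changed. Alternatives changed the background correction, scaling, source, filter, probe summary, variance model, threshold and arrays. No slide is named, so no slide block could be fitted. Figures used matplotlib 3.10.9.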

Additional observations from a re-analysis of the deposited data

Results flagged for a closer look

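Among 30 groups of 4 arrays examined (each clock probe and each named list gene in each treatment group), 4 held a rat whose gap to its nearest neighbour, as a share of the group's range, passed Dixon's critical value. Chance gives about 1 in 20 such groups. Tef in compound 197 replicate 1 stood at 7.19, above the other 3 treated rats at 6.62 to 6.65. Dbp in control replicate 4 stood at 5.85, below the other controls at 5.99 to 6.0004. The remaining pair are probes near background, Per3 in control replicate 2 at 5.24 and Cry2 in compound 197 replicate 3 at 5.08.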

How the results depend on the processing

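Each result was recomputed under 14 other settings and on leaving out each of 8 arrays. The fall of Bmal1 kept its side of the threshold in all but median scaling (-0.045) and the change relative to the median (-0.42), and that of Nr1d1 in all but median scaling (-0.43) and a threshold of 0.01, at which the change of -1.02 has an adjusted p of 0.0108. Dbp passed with cyclic loess (0.39), median scaling (0.77) and relative to the median (0.42). Median scaling turned the sign of Per2 (0.27), Tef (0.21), Usp2 (0.22) and Pdk4 (0.16). The cause was not tested. The count of clock probes called was 2, with 3 for cyclic loess, 1 with median scaling or a threshold of 0.01, and 2 in the other settings that kept all arrays. The count of all probes called was 3995, and 2273 to 4030 in other settings that kept all arrays, with 2273 at a threshold of 0.01, 2477 with median scaling, 2687 with 1 probe per gene, 2707 with cyclic loess, 2769 relative to the median and 3196 for probes detected on all arrays. The count of other clock genes called was 2, with 3 for no background correction, offset 50, median scaling, the authors' normalized table and the intensity trend, 1 for cyclic loess, for no filter and relative to the median, and 0 at a threshold of 0.01 and with the replicate number as a block. The median change of the 6 clock probes, -0.54, was -0.33 without background correction, -0.40 with offset 50, 0.081 with median scaling, -0.34 with cyclic loess, -0.35 in the authors' normalized table and -0.36 relative to the median. Leaving out 1 array gave 2571 to 3881 calls among all probes (2571 without compound 197 replicate 4), 2 to 3 clock probes, 0 to 3 other clock genes, 2 to 3 output and inducer genes and a median clock change of -0.59 to -0.44. Changes then ran from -0.74 to -0.54 for Bmal1, -1.21 to -0.88 for Nr1d1, -1.30 to -0.33 for Per1, -0.42 to -0.07 for Per2, 0.17 to 0.26 for Dbp and -0.62 to -0.30 for Tef. Same-numbered rats of the 2 groups did not vary together (0 of 4 pairs with a correlation over 0.1). Differently numbered rats had correlations from -0.30 to 0.37, so these values cannot settle whether the numbers carry a pairing. The main fit did not pair them. With the replicate number as a block 3229 probes were called, with Bmal1 (adjusted p = 0.0155) and Nr1d1 (0.0180) among them, and Gsk3b, Usp2 and Pdk4 were not. Probes near background limit what can be said of Clock, Cry2 and Per3.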
